A study of Mus musculus with 24 samples.

Results

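The regions described here were the promoters of the protein-coding genes on the 19 mouse autosomes. Each gene of the GENCODE vM21 basic annotation (build GRCm38) had 1 region, made of the 500 bp on either side of each of its transcription starts. There were 20807 such promoters, with 39627 starts in all, set beside 203189 other sites that at least 2 libraries called outside them. A promoter was called in a library when the summit of a peak, the position of its highest signal, fell inside the region. The median region was 1007 bp long and the longest 12493 bp, and 2616 promoters (12.6%) overlapped that of another gene, so that calls of such pairs were shared.

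The calls came from ATAC-seq, in which a transposase cuts and tags accessible DNA, in 24 libraries of E14 mouse embryonic stem cells that fell into 12 groups of 2. All cells carried CTCF fused to an auxin-inducible degron (CTCF-AID), through which the auxin IAA removes the protein. In serum-free medium a CTCF-AID line with an overexpressed control was left without IAA or given IAA for 12 h, and 2 more lines, which overexpressed CTCF in wild-type or in mutated form, received IAA for the same time. The serum pair of groups was CTCF-AID cells at 0 h and 12 h of IAA in serum, although the culture protocol describes a serum-free medium for all libraries alike. The remaining 12 libraries were CTCF-AID cells without IAA, with a hairpin named shluci or 1 of 2 hairpins (shRNA1, shRNA2) in a Chd4 set and in a Chd8 set. Nothing in the labels says whether replicates were separate cultures, how many clones a line came from or which residues were mutated, and p-values therefore measure only the spread between these libraries.

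A promoter is where the transcription machinery assembles, and many mammalian promoters lie in CpG islands, stretches rich in the CG dinucleotide that are usually kept open in all cell types. Promoters poor in CG more often carry a TATA box and open only in the tissue that uses the gene. CTCF is a zinc-finger protein that binds a long motif and, with the ring-shaped cohesin complex, anchors chromatin loops. CHD4 is the ATPase of the NuRD complex, which combines nucleosome remodelling with histone deacetylation, and CHD8 is a related remodeller known to bind CTCF.

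The stretches before the main start of 4 genes show what promoters with different calls look like. They are printed 5′ to 3′ on the gene's strand from the GRCm38 genome, in lower case with each CG in capitals for the first 3, and were chosen to avoid any annotated exon. B2m, which encodes the light chain of MHC class I and stood on the housekeeping list, was called by 24 libraries (chr2:122147536-122147685, plus strand). Gins2, a subunit of the replicative helicase complex, was called by 20, all but the 4 Chd4 shRNA libraries (chr8:120589305-120589454, minus strand). Spag17, a gene of the sperm tail and of motile cilia, was called by 12 (chr3:99885267-99885416, plus strand). Acta1, skeletal muscle actin, was called by none (chr8:123894752-123894901, minus strand), and its capitals mark the TATA box. Single stretches do not follow the averages given below: that of B2m held 6 CG dinucleotides at 49.3% GC, and that of Acta1 7 at 60.7%.
B2m: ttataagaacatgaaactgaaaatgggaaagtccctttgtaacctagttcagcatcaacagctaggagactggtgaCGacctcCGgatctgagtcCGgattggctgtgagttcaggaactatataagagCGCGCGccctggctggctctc
Gins2: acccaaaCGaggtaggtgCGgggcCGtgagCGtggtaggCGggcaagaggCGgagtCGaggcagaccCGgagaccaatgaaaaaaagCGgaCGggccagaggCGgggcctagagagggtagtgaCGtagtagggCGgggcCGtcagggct
Spag17: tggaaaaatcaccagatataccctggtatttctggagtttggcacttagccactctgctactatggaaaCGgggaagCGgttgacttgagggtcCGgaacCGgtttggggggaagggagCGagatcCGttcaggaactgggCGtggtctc
Acta1: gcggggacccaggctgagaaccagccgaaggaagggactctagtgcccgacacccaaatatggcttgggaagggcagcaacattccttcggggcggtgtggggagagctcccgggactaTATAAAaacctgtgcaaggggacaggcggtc

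CTCF sites of promoters that lost their calls with CTCF degradation are shown next. Each is the match to the CTCF consensus, in capitals, with 8 bases on either side, read on the strand of the match from GRCm38. The promoters of Adprhl1, Psg16, Pcp4 and Apol8 were called in all 4 untreated libraries of the degradation experiments and in none of the 4 treated ones, with lists cut to equal length. Lgi4 and Hsd3b7 lost their calls in 1 of the 2 media.
Adprhl1: tcgctctgCCAGCAGGGGGCACaactcacc
Psg16: cagagtgtCCACTAGGTGGCGAgctcattc
Pcp4: actgtgctCCACTAGGTGGCTCtttgcgct
Apol8: tccaccatCCACTAGATGGTGCtgtaccct
Lgi4: gatggtgaCCACCAGGGGGAGCagctggcc
Hsd3b7: tggactggCCACCAGGGGGCACtctggcaa
These windows lie at chr8:13254327-13254356 (minus strand), chr7:17073977-17074006 (plus), chr16:96467581-96467610 (plus), chr15:77757020-77757049 (minus), chr7:31059237-31059266 (plus) and chr7:127800500-127800529 (plus), in the same order. The sites of Adprhl1, Psg16, Apol8 and Lgi4 lay between annotated genes, that of Pcp4 in an intron of Igsf5, and that of Hsd3b7 in an exon of the transcript 9430064I24Rik. The match was exact in Adprhl1 and Hsd3b7 and had 1 mismatch in the others. Counted from the main start, with upstream positions negative, its centre lay at −180 bp in Adprhl1, −48 in Psg16, −10 in Pcp4, −32 in Apol8, −90 in Lgi4 and −89 in Hsd3b7. The median summit of the untreated libraries lay 34 bp from the motif in Adprhl1, 36 bp in Psg16, 38 bp in Pcp4, 32 bp in Apol8, 56 bp in Lgi4 and 52 bp in Hsd3b7. These 6 were chosen after their values were seen; of the other 2 located, the summit lay 202 bp from the match in Slc35b2 and 136316 bp from it in Grik4, a gene with starts far apart that was lost in serum.

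The deposited lists held between 59786 peaks (serum) and 166697 (Chd8 set), and no read totals came with them. The library depths implied by the peaks' pileups and p-values were 30.8 to 39.7 M for the CTCF lines, 21.7 to 26.1 M for the serum set, 20 to 20.5 M for the Chd8 set and 10.0 to 10.2 M for the Chd4 set. Because a longer list calls more promoters, every list was cut to the length of the shortest list of its own set, keeping the peaks with the largest −log10 p, unless the deposited lists are named. Between 9.47% and 21.9% of the deposited summits fell in promoters. Promoter peaks were the stronger ones, with a median fold enrichment per library of 5.08 to 12.0 against 4.09 to 5.83 for other peaks. The sets differed in depth, list length, medium and peak width (minimum width 112 to 172 bp for CTCF lines and serum, 29 to 70 bp for the Chd sets), so differences between sets cannot be told apart from these, and groups were compared within a set.

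In the deposited lists, 4520 promoters (21.7%) were called by all 24 libraries and 4705 (22.6%) by none. A further 10327 (49.6%) were called by both libraries of some but not all groups, and 477 by both libraries of exactly 1 group. The Chd4 set accounted for many of these: 9074 promoters (43.6%) were called by all 18 libraries outside that set, and 4554 of these missed at least 1 of its 6 libraries. Some calls depended on where the region ended. Between 377 and 528 genes (1.81% to 2.54%) owed their call to a summit more than 400 bp from a start, and 216 to 349 uncalled genes had a summit beyond the edge but within 600 bp. With 250 bp either side of a start, 1989 promoters were called by all 24.

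**Figure D1:**
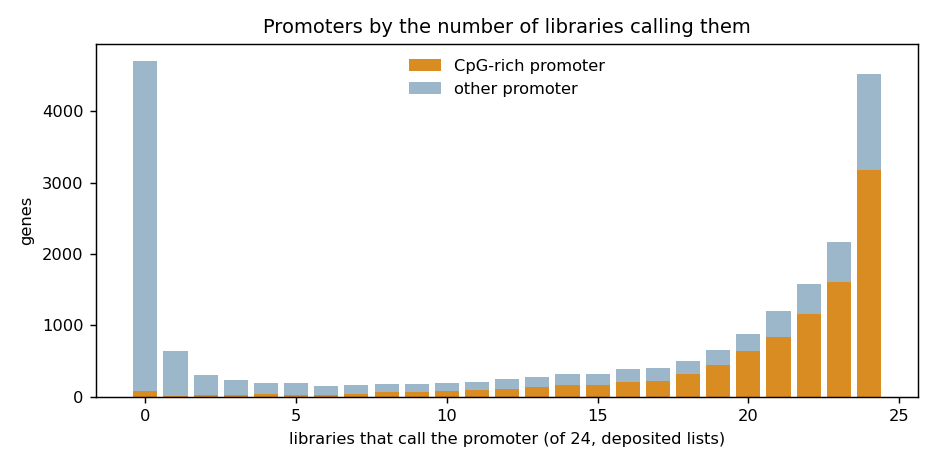
Number of genes (vertical axis) by the number of the 24 libraries whose deposited list calls the promoter (horizontal axis), with CpG-rich promoters in orange and all others in blue stacked on top. The 2 ends hold 4705 promoters called by no library and 4520 called by all 24, and CpG-rich promoters make up few of the first and most of the last.

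CpG-rich promoters, defined as GC of at least 50% and an observed-to-expected CpG ratio of at least 0.6 over the 500 bp either side of the main start, made up 9786 of the 20807 promoters (47.0%). They were 70.4% of the promoters called by all 24 libraries, 67.2% of the 8948 called by 12 to 23 and 1.87% of those called by none. Seen the other way, only 88 of the 9786 CpG-rich promoters were never called, against 4617 of the 11021 others (41.9%). The median CpG ratio was 0.71 in the class called by all, 0.28 among the 2634 promoters called by 1 to 11 libraries and 0.14 in the class called by none. The plot of libraries per gene shows the same split.

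Short motifs were counted in the same classes. The GC box GGGCGG, the site of SP1-family factors, was found on either strand of 83.7% of the promoters called by all 24 libraries and 12.5% of those called by none, against 62.4% of all promoters of that length. The ETS motif CCGGAAGT was found in 12.3% and 0.871%, against 7.37% of all. The TATA box TATAAA, searched on the gene's strand 40 to 20 bases before the start, ran the other way, with 0.752% and 6.16% against 2.35% of all, and 290 of the 490 TATA promoters were never called. The CCAAT box was found in 69.4% and 80.0%, against 69.9% of all. A match is a description of the sequence and not a bound site.

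Gene families are set beside all promoters, of which 22.6% were called by no library and 21.7% by all 24. Of 1128 olfactory receptor genes, whose proteins detect odorants, 873 were called by no library and 1 by all 24. Vomeronasal receptors, which detect pheromones, had 309 of 327 uncalled, bitter taste receptors 33 of 35, beta-defensins 31 of 42 and keratin-associated proteins of hair 43 of 57. None of the 75 ribosomal protein genes, 75 mitochondrial ribosome genes or 44 genes of mitochondrial complex I was uncalled. Of these 18 (24%), 26 (34.7%) and 21 (47.7%) were called by all 24, the first share being close to that of all promoters. Zinc-finger genes of the Zfp series, many of which encode repressors of transposable elements, had 154 of 358 called by all 24 (43.0%), against 21.7% of all promoters; 50% of them were CpG-rich, against 47.0% of all promoters, and neither difference was tested.

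Promoters of the naive pluripotency list, checked as markers of the labelled cell type, were all called somewhere, and 4 of 22 (18.2%, against 21.7% of all promoters) by all 24 libraries: Nanog, Esrrb, Nr5a2 and Tfcp2l1, each a transcription factor of naive stem cells. Pou5f1, which encodes OCT4, was called by 6 libraries only, and Dppa3 by 2. Lists of other lineages had similar counts. None of 11 trophoblast or 22 germline promoters was uncalled, and 1 of 15 neural and 1 of 16 endoderm and mesoderm promoters. All 24 libraries called 18.2%, 18.2%, 20% and 6.25% of these lists. Such counts therefore do not identify the cell type. Among 22 markers of differentiated tissues such as muscle, pancreas and liver, 14 were never called, against 22.6% of all promoters, and 1 was called by all 24. Of 10 fibroblast markers 4 were never called (Fap, Postn, Lum and Col1a1), while Col1a2 was called by 23 libraries, so the list was not at 0.

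Replicates agreed better at promoters than elsewhere. The share of regions called by both libraries of a group among those called by either averaged 84.4% at promoters and 56.5% at other sites. Promoters were higher in 12 of 12 groups, by 18.5 to 35.9 points (exact sign-flip permutation over groups, two-sided, p = 0.000488, the smallest these 12 groups allow). Agreement at promoters ran from 57.9% with Chd4 shRNA2 to 94.2% in the untreated control line. Promoter peaks were also stronger than others, and the part of strength in this gap was not tested.

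The first question of the design was what CTCF degradation does to accessibility. With lists cut to equal length, the number of promoters called differed little. In serum-free medium 13522 and 13487 genes were called without IAA and 13506 and 13524 with it. In serum 12751 and 12567 were called at 0 h and 12712 and 12423 at 12 h. The groups overlapped in both media, and over both the difference was −40.5 genes with a pooled SD between replicates of 122 (exact permutation within media, two-sided, p = 0.611, adjusted over 8 tests 0.762). Size and direction depended on the lists: at deposited length the difference was 228 in serum and −117 in serum-free medium, and with −log10 q of at least 10 it was 1158 and −214.

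**Figure D2:**
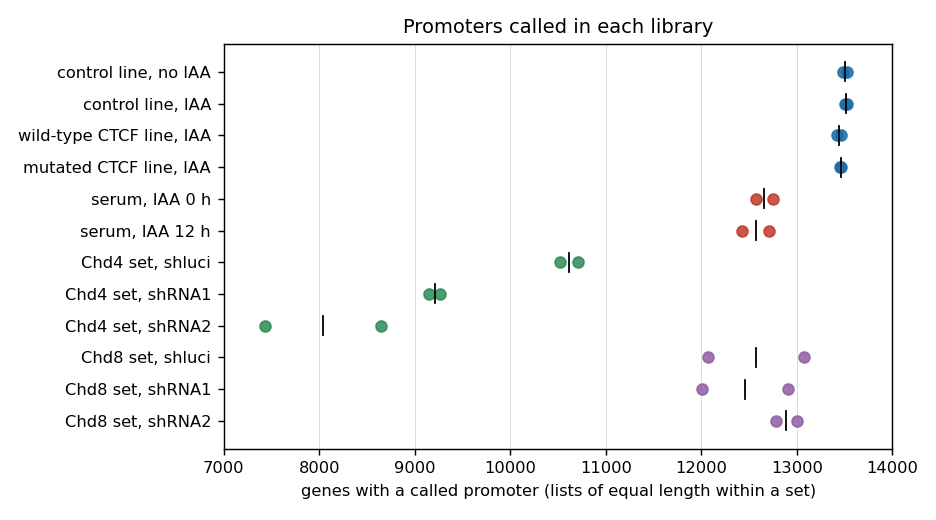
Genes with a called promoter (horizontal axis, which does not start at 0) in each of the 24 libraries, by group, with lists cut to equal length within each set. Points are libraries and the black bar is the mean of the 2. The CTCF lines sit between 13422 and 13524, while the Chd4 set runs from 10708 (shluci) down to 7430 (shRNA2).

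Individual promoters did change calls. A promoter was counted as lost when both reference libraries and neither treated library called it, and as gained in the opposite case. In serum-free medium 144 of the 13099 promoters called by both untreated libraries were lost (1.1%), against 7.87% of all regions tested and 8.98% of other sites. Of those called by neither untreated library, counting regions called by at least 2 of the 24 libraries, 140 of 1555 were gained (9%, all regions 5.21%). In serum 199 of 11902 were lost (1.67%, all regions 10.6%, other sites 14.2%) and 142 of 2057 gained (6.90%, all regions 2.35%). Promoters were thus lost at a lower rate and gained at a higher one than all regions in both media, though the regions that were not called are a different set in the 2 classes. No test over the promoters was made, since promoters are not replicates.

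Many promoters that lost their call were still overlapped by a peak. Of the 144 promoters lost in serum-free medium, 75 were still overlapped by a peak in both treated libraries and 60 by none. In serum the numbers were 91 and 90 of 199. Sp4, a zinc-finger activator of the SP family, was at the 98.3 and 98.4 percentile of peak strength (100 being the strongest peak of a list) in the untreated libraries and not called in the treated ones, although a peak overlapped its region in all of them. Slc35b2, which encodes a Golgi transporter of the sulfate donor PAPS, was at percentiles 67.7 and 65.3 without IAA, had no peak in either treated library and was at 36.7 and 54.0 in the wild-type line and 40.3 and 41.5 in the mutated line. Losses also came from the weak end of the promoters: 4.35% of the weakest 20% and 0.0382% of the strongest 20% of reference promoters were lost in serum-free medium, and 6.30% and 0.0840% in serum.

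Promoters with a CTCF consensus carried a larger part of the losses. The consensus, a motif of 14 bases with up to 1 mismatch on either strand, was present in 1379 promoters (6.63%). It stood in 8.46% of the promoters called by both untreated serum-free libraries but in 18.8% of those lost (27 of 144), and in serum in 8.47% and 21.1% (42 of 199). Among losses that left no overlapping peak the share was 23.3% (14 of 60) and 22.2% (20 of 90). Gained promoters held it in 7.14% and 6.34%, against 6.17% and 5.69% of those that could be gained. As a rate, 2.44% of the called promoters with the consensus were lost in serum-free medium against 0.976% of those without, and 4.17% against 1.44% in serum.

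The same difference was visible in each library as the gap between the percentage of consensus promoters called and the percentage of all other promoters called. Serum-free libraries without IAA had gaps of 18.5 and 18.9 points, and those with IAA 15.8 and 16.7. In serum it was 18.6 and 18.3 at 0 h and 13.7 and 13.9 at 12 h. All 4 treated libraries lay below all 4 untreated ones. Over both media the difference in gap with degradation was −3.58 points, with a pooled SD between replicates of 0.359 (exact permutation within media, two-sided, p = 0.0556, the smallest the design allows, adjusted over 8 tests 0.267), so the difference could not pass 0.05. Serum-free libraries changed by −2.50 points and serum libraries by −4.65. An exact permutation of the IAA labels within media gave p = 0.556 for the difference between the media. It cannot tell whether the media differ, because both changed in the same direction and swapping labels in 1 medium gives a larger contrast. The difference in gap with degradation came from the consensus promoters. Of these a mean of 82.4% were called without IAA and 80.1% with it in serum-free medium, and 78.1% and 73.3% in serum. The other promoters were at 63.7% and 63.9%, and at 59.6% and 59.5%.

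**Figure D3:**
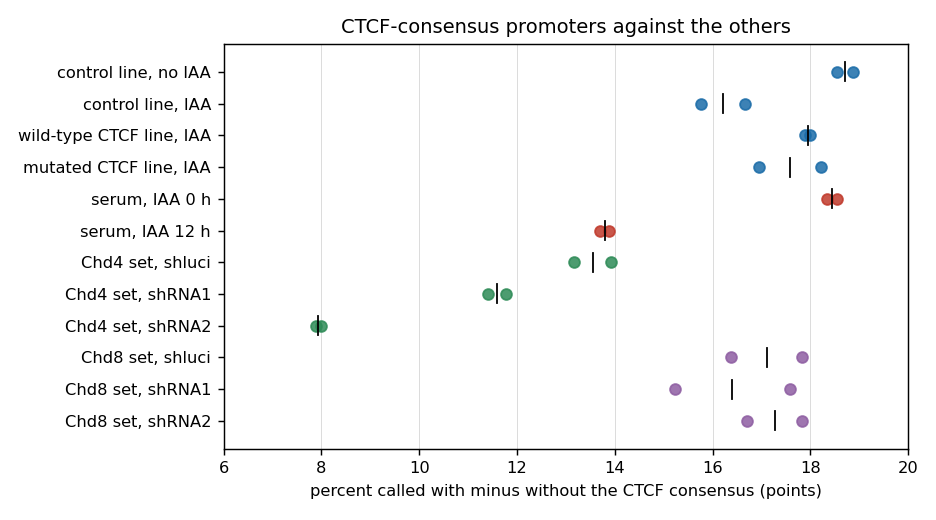
Percent of CTCF-consensus promoters called minus percent of the other promoters called (horizontal axis, points) in each library, by group; points are libraries, black bars means of 2. The 4 degraded libraries of the control line and the serum set (13.7 to 16.7) sit below the 4 untreated ones (18.3 to 18.9), and the lines with added CTCF lie between 17.0 and 18.2.

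Across both media, 15 promoters were called by all 4 untreated and none of the 4 treated libraries, which was 0.131% of those called by all 4 untreated libraries (all regions 3.92%). Of these 15, 5 held the consensus (33.3%, against 8.45% of the promoters called by all 4 untreated libraries), none was CpG-rich (against 71.2%), and 9 had no overlapping peak in any treated library. Adprhl1, which encodes an ADP-ribosylhydrolase-like protein of the heart, was at percentiles 73.0, 75.0, 74.5 and 51.4 in the untreated libraries. Psg16, a pregnancy-specific glycoprotein gene, was at 67.8, 60.4, 51.8 and 46.0. Pcp4, a regulator of calmodulin in Purkinje cells, was at 39.7, 72.6, 57 and 52.9, and Apol8, an apolipoprotein L gene, at 60.7, 66.8, 51.5 and 20.5. These values lay in the middle of the lists, where the median of the promoters called by all 4 untreated libraries was the 85.3 percentile. Snap25, a vesicle-fusion protein of synapses, and Topaz1, a germ-cell gene, were also lost in both media and held no consensus; the region of Snap25 was still overlapped by a peak in all 4 treated libraries. At deposited length 1 treated serum-free library called Apol8 and both treated serum libraries called Topaz1.

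The opposite pattern, called in none of 4 untreated and all 4 treated libraries, was found for 9 promoters (0.880% of those eligible, all regions 0.118%), 1 of them with the consensus. Only Amhr2, the receptor of anti-Müllerian hormone, and Majin, which tethers telomeres in meiosis, had no overlapping peak in any untreated library of the cut lists, and at deposited length 1 untreated library called Amhr2. B3gnt9, Prr5l, Lrp10, Klf16, Rab27a, Inhba and Syt12 were already overlapped by a peak in all 4 untreated libraries, whose summit lay outside the region.

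The lines with added CTCF asked whether the protein restores what degradation removed. Against the degraded control line, the wild-type CTCF line gained 94 promoters (6.25% of 1504, all regions 5.43%) and lost 123 (0.942% of 13059, all regions 4.72%), and the mutated CTCF line gained 96 (6.38%, all regions 4.75%) and lost 103 (0.789%, all regions 3.88%). The consensus stood in 17.0% of the promoters gained with wild-type CTCF and 13.5% of those gained with mutated CTCF, against 7.85% of those that could be gained, and in 6.50% and 9.71% of those lost, against 8.19% of those called. Of the 27 consensus promoters lost in serum-free medium, both wild-type libraries called 14 and both mutated libraries 11; of the 117 losses without consensus the numbers were 35 and 37. Both lines are compared with the degraded control libraries that also defined the losses, so a return towards the untreated state is partly built in.

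The motif gap was 17.9 and 18 points in the wild-type line and 18.2 and 17.0 in the mutated line, above the 15.8 and 16.7 of the degraded control line in all 4 libraries. The differences, 1.73 and 1.38 points, came with an exact permutation p of 0.333 each, the smallest that 2 libraries against 2 allow. Some CTCF-line lists share the same strongest peak and others do not. With 1 library an arm, and so no test, the gap was higher by 1.22 (lists with it) and 2.25 points (without it) in the wild-type line and by 1.55 and 1.20 in the mutated line. For CTCF degradation both untreated libraries and 1 treated library carried that peak, and the difference among them was −2.04 points. The genes called were fewer by 73 in the wild-type line and 56 in the mutated line (pooled SDs 21.9 and 10.3, exact permutation p = 0.333 for each). The direction turned with the processing: at deposited list length the differences were 168 and 123, and with −log10 q of at least 10 they were 178 and 169.

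Between the wild-type and the mutated line 89 promoters differed one way and 63 the other (0.683% and 4.02% of those eligible, all regions 3.68% and 3.22%), fewer than in any comparison with the control line. Adprhl1 was at percentiles 68.4 and 70.7 with wild-type and 51.2 and 14.4 with mutated CTCF, Psg16 at 60.9 and 48.6 and at 43.2 and 60.2, and Pcp4 at 62.5 and 49.0 and at 48.1 and 53.2, so that all 3 were called in all 4 libraries. Pcdha11 was called in neither wild-type library and at 41.1 and 43.4 in the mutated line. Against the degraded control line, the strongest named loss in the mutated line was Rassf8, a gene of a Ras-association family, at 99.6 and 99.2 in the degraded control line, not called in either mutated library and at 98.6 in 1 of 2 wild-type libraries, with a peak still overlapping its region throughout.

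The clustered protocadherins, neuronal cell-surface proteins whose alternative promoters are classic CTCF-bound sites, were counted as a family. Of 57 promoters, 34 and 29 were called in the untreated control line, 20 and 21 after IAA, 25 and 31 in the wild-type line and 27 and 28 in the mutated line. In serum 26 and 28 were called at 0 h and 13 and 16 at 12 h. All 4 degraded libraries lay below the other 8 of these experiments, while of all promoters 64.9% and 65.0% were called without and with IAA in serum-free medium and 60.8% and 60.4% in serum; the difference from all promoters was not tested. In serum-free medium 6 of 29 called protocadherin promoters were lost and in serum 6 of 22, beside 1.1% and 1.67% of all called promoters. None was gained in either medium.

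**Figure D4:**
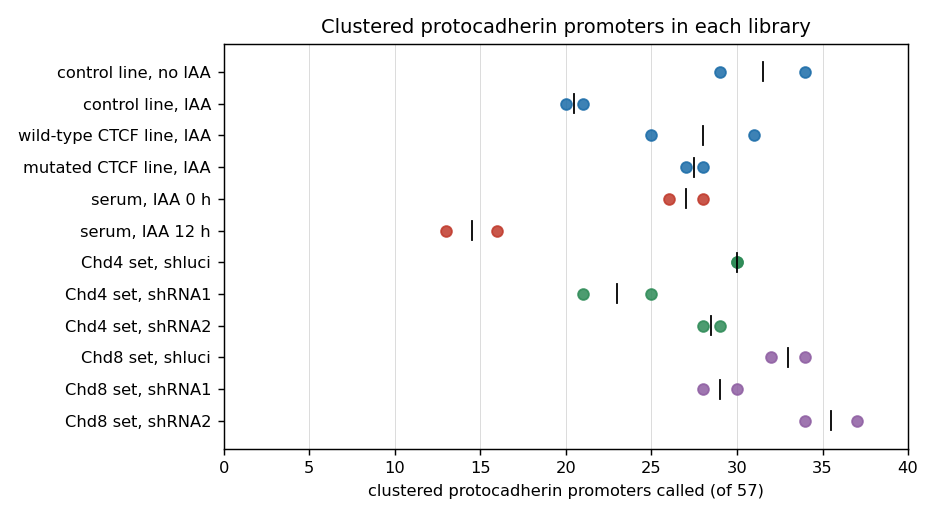
Clustered protocadherin promoters called (horizontal axis, of 57) in each library, by group, with lists cut to equal length within each set; points are libraries and black bars means of 2. The degraded control line (20 and 21) and serum at 12 h (13 and 16) sit below the untreated libraries (29 and 34, 26 and 28) and the lines with added CTCF (25 to 31).

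The alpha, beta and gamma genes are given apart. Of 21 Pcdhg promoters 20 and 20 were called in the untreated control line and 14 and 18 after IAA, and 19 and 19 against 9 and 12 in serum. Of 14 Pcdha promoters 8 and 6 were called untreated and 3 and 1 after IAA, then 3 and 5 in the wild-type and 4 and 5 in the mutated line, and 4 and 5 against 3 and 3 in serum. Of 22 Pcdhb promoters 6 and 3 were called untreated and 3 and 2 after IAA, and 3 and 4 against 1 and 1 in serum. The added-CTCF lines each had 19 and 20 of the Pcdhg promoters. In the Chd4 set the gamma promoters were at 17 and 16 with shluci against 9, 12, 13 and 14 with the hairpins, the alpha promoters at 9 and 9 against 9, 10, 9 and 10, and the beta promoters at 4 and 5 against 3, 3, 7 and 4, where all promoters were at 51.0% with shluci and 44.2% and 38.6% with the hairpins. The 14-base consensus matched only 2 of the 57 regions, which says no more than that these letters are absent.

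Losses in the other lists stand beside 1.1% of all called promoters lost in serum-free medium and 1.67% in serum. Of the 22 pluripotency promoters none was lost or gained in either medium. In serum-free medium 0 of 11 called promoters of CTCF and cohesin genes, 0 of 43 of proteasome genes and 0 of 74 of mitochondrial ribosome genes were lost, which is near the share of all promoters, and in serum 1 of 69 mitochondrial ribosome genes was. Hox promoters, which pattern the body axis in clusters with CTCF boundaries, lost 1 of 24 called and gained 1 in serum-free medium, and lost 4 of 18 in serum. In serum, trophoblast genes lost 2 of 8 and genes of endoderm and mesoderm 2 of 10, and neither list had a loss in serum-free medium. Ctcf itself was called in all 8 libraries of the CTCF lines and all 4 of the serum set; degradation acts on the protein, and its promoter checks nothing.

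The Chd4 set compared hairpins against Chd4 with shluci. With shluci 10522 and 10708 genes were called, with shRNA1 9148 and 9266, and with shRNA2 7430 and 8648, from lists of the same length. All 4 knockdown libraries lay below both controls. The mean difference was −1992 genes with a pooled SD of 505 (exact permutation, two-sided, p = 0.0667, the smallest that 2 against 4 allow, adjusted over 8 tests 0.267). The depth implied was 10.0 to 10.2 M in all 6 libraries, while the deposited lists ran from 80619 to 141742 peaks. An ATAC-seq peak list does not check the knockdown, and the Chd4 promoter was called in neither shluci library.

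Losses outnumbered gains. With shRNA1, 1016 of 9364 promoters called by both shluci libraries were lost (10.9%, all regions 21%) and 314 of 3597 gained (8.73%, all regions 5.58%); with shRNA2 1541 were lost (16.5%, all regions 24.3%) and 255 gained (7.09%, all regions 5.76%). Promoters called in both shluci and none of the 4 knockdown libraries numbered 494 (5.28%, all regions 11.8%), and the opposite 93 (2.59%, all regions 1.96%); both hairpins share the shluci libraries. Of the 494 losses, 465 had no overlapping peak in any knockdown library.

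CpG-rich promoters made up 73.1% of the 494 losses, against 71.1% of the promoters called with shluci. They were 30.1% of the 93 gained, against 40.4% of the promoters that could be gained. By hairpin, 11% of the called CpG-rich promoters were lost with shRNA1 and 17.3% with shRNA2. Of the other called promoters 10.5% and 14.3% were lost. The percentage called, as a mean of 2 libraries, set the classes further apart. CpG-rich promoters went from 76.1% with shluci to 63.5% with shRNA1 and 53.9% with shRNA2. The other promoters went from 28.7% to 27.2% and 25.1%. The fall in called promoters was thus mainly one of CpG-rich promoters, which their share of the 494 losses does not show. The difference between the classes was not tested. The gap between consensus and other promoters was 13.2 and 13.9 points with shluci, 11.8 and 11.4 with shRNA1 and 7.89 and 7.99 with shRNA2 (difference −3.78, exact permutation p = 0.133), but a gap in points shrinks when fewer promoters of either kind are called. Promoters with the consensus were lost at 11% and those without at 10.8% with shRNA1, and at 19.7% and 16.2% with shRNA2. The weaker promoters were lost more: 26.2% of the weakest 20% and 0.694% of the strongest 20% with shRNA1, and 34.0% and 1.98% with shRNA2. The CTCF consensus stood in 9.31% of the 494 losses, 8.37% of those with shRNA1 and 9.86% of those with shRNA2, against 8.22% of the reference, a difference that was not tested.

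**Figure D5:**
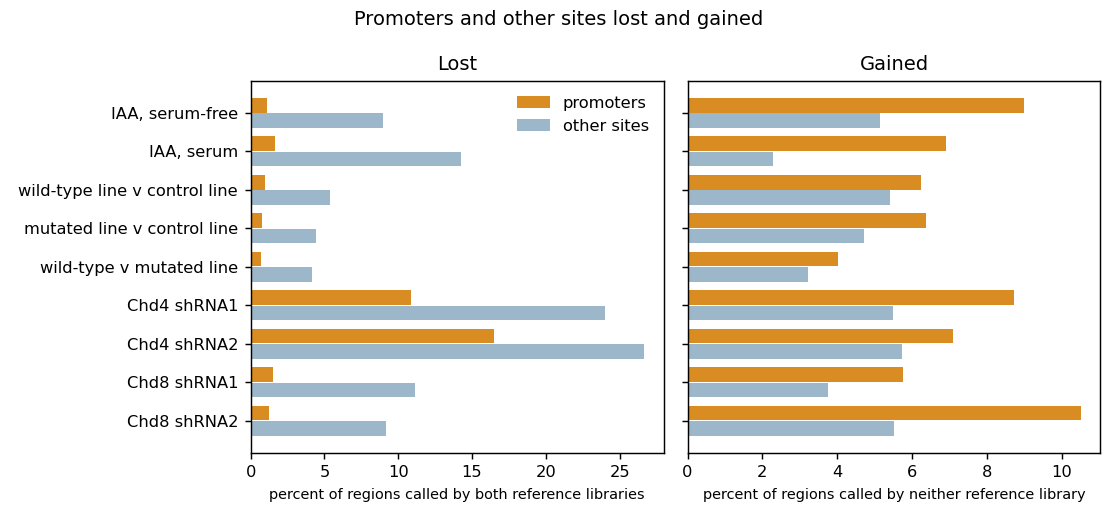
Percent of promoters (orange) and other sites (blue) lost, of regions called by both reference libraries (left), and gained, of regions called by neither reference library among those called by at least 2 of the 24 libraries (right), in 9 comparisons. Promoters are lost at a lower rate than other sites in every comparison and most with Chd4 shRNA2 (16.5%).

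The losses named first were chosen by their high percentile with shluci. G3bp1, which nucleates stress granules (chromosome 11, main start 55469685), stood at percentiles 97.2 and 97.4 with shluci and had no peak in 4 knockdown libraries; in the 18 libraries of the other sets it was at 97.3 or higher. Gins2, whose upstream stretch with 14 CG dinucleotides is printed above, was at 96.5 and 97.0 with shluci and absent from the 4. Klf5, a Krüppel-like factor of naive pluripotency (chromosome 14, main start 99298691), was at 95.4 and 90.5 with shluci, absent from the 4, and at 93.0 or higher elsewhere. Hoxc13, Zfp574, Glrx5, Tle4, Rad23b and Gstt2 had no overlapping peak in the cut lists either. At deposited length 1 library called Hoxc13, Rad23b, Gstt2 and Zkscan5 and 2 called Tle4 after knockdown, while G3bp1, Gins2, Klf5, Zfp574 and Glrx5 remained uncalled. Zkscan5 was also not called in the 4, but 1 library of shRNA1 and both of shRNA2 still had a peak over its region.

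Of the gains described here, all but Asz1 had promoters that were not CpG-rich. In the cut lists Spag17 was not called with shluci and stood at 98.2, 97.5, 96.7 and 94.2 in the 4 knockdown libraries; it was also called in all 4 serum libraries, at 66.6 to 82.6, and in none of the untreated control line. At deposited length both shluci libraries called Spag17, and 1 called Asz1, Nat3 and Dlg2, which ends these gains there. Spaca1, a membrane protein of the sperm acrosome, was at 95.8, 95.7, 86.3 and 89.7, Asz1, a germ-cell protein of the piRNA pathway, at 95.5, 97.8, 58.1 and 93.4, and Nat3, an arylamine acetyltransferase, at 98, 88.7, 84.4 and 89.9. Lrrc4c and Dlg2, both synaptic, were at 57.7 to 97.2 and 79.8 to 98.4. Pdcd1, which encodes the immune receptor PD-1, was called by 6 libraries in all, 4 of them the knockdown ones. Spaca1, Asz1, Lrrc4c and Dlg2 were also called in some libraries of the other sets. Of 22 germline promoters, 38.6% were called with shluci, 45.5% with shRNA1 and 36.4% with shRNA2, against 51.0%, 44.2% and 38.6% of all promoters. Across both hairpins 2 were gained and 0 of 6 lost, where 2.59% of all eligible promoters were gained and 5.28% lost. With shRNA2 alone 1 of the 6 was lost, against 16.5% of all called promoters.

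Gene groups were read against all promoters, which went from 51.0% called with shluci to 44.2% with shRNA1 and 38.6% with shRNA2. CpG-rich promoters alone went from 76.1% to 63.5% and 53.9%. Pluripotency promoters went from 63.6% to 50.0% and 36.4%, with 3 of 12 lost with each hairpin and none gained. Of all called promoters 10.9% were lost with shRNA1 and 16.5% with shRNA2. Sall4, a stem-cell zinc-finger factor, was at 88.9 and 78.6 with shluci and had no peak in the 4 knockdown libraries, as Klf5 had none. Zfp42, which encodes REX1, went from 78.4 and 89.4 to 63.5, uncalled, uncalled and 31.4, and Nanog from 82.1 and 44.0 to 55.0, 53.1, 17.0 and 22.2. Esrrb was called throughout. Promoters of serum and BMP response genes went from 52.6% to 28.9% and 18.4%, and those of CTCF and cohesin genes from 79.2% to 58.3% and 37.5%; Pds5b, a cohesin regulator, stood at 78.2 and 97.2 with shluci and had no peak in any knockdown library. NuRD genes went from 54.2% to 41.7% and 25.0%. All promoters of the NuRD list and of the CTCF and cohesin list were CpG-rich. So were 73.7% of the serum and BMP list, against 47.0% of all promoters. Whether these lists fell more than CpG-rich promoters do was not tested. Of 12 genes of the 2-cell stage 1 and 1 were called with shluci against 3, 2, 3 and 3 with the hairpins. Fibroblast markers were at 15%, 10% and 25%, and differentiated-tissue markers at 4.55%, 6.82% and 6.82%.

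In the deposited lists, used here for every set and unequal in length, the summit lay at another position over the start in these libraries. Its median was 11 and 17 bp downstream of the nearest start with shluci, 49 and 49 bp with shRNA1 and 25 and 42 bp with shRNA2, so that all 4 knockdown libraries lay further downstream (difference 27.2 bp, pooled SD 7.36, exact permutation two-sided p = 0.0667, the smallest possible; this measure was added after the data were seen). In the Chd8 set the medians were 10 and 26 bp with shluci and 17 to 29 bp with the hairpins, which overlap (difference 7.25 bp, pooled SD 7.71, exact permutation p = 0.267). In the CTCF lines and the serum set the summit lay 19 to 26 bp upstream.

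Chd8 knockdown left the number of called promoters within its replicate spread. With shluci 12072 and 13072 genes were called, with shRNA1 12910 and 12008, and with shRNA2 12779 and 12996, so that the groups overlapped. The group means, 12572 with shluci and 12673 with the hairpins, differed by less than the pooled SD of 557 (exact permutation, two-sided, p = 1, adjusted 1). With shRNA1 172 promoters were lost (1.51% of 11418, all regions 9.26%) and 103 gained (5.76% of 1789, all regions 3.79%), and with shRNA2 144 were lost (1.26%, all regions 7.62%) and 188 gained (10.5%, all regions 5.61%). Across both hairpins 45 were lost (0.394%, all regions 3.52%) and 40 gained (2.24%, all regions 1.02%), and 43 of the 45 had no overlapping peak. CpG-rich promoters were 20% of the 45 lost, against 70.6% of the promoters called with shluci, and 55.0% of the 40 gained, against 27.9% of those that could be gained.

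The named Chd8 changes were mostly of peaks from the middle of the lists. Naglu, a lysosomal enzyme of heparan sulfate breakdown, was at percentiles 60.5 and 77.3 with shluci and had no peak in the 4 knockdown libraries. Serpinb5, a serpin of epithelia, was at 52.7 and 45.1, Dnase1l3, a secreted nuclease, at 61.4 and 49.7 and Fgf7, a growth factor, at 50.5 and 42.5, all without a peak after knockdown. Pdcl, which encodes a phosducin-like chaperone cofactor, was the strongest, at 99.2 and 99.2 with shluci and uncalled in the 4, and it was called at 95.9 or higher in all 18 libraries of the other sets. A peak with its summit elsewhere still overlapped its region in all 4 knockdown libraries. Among the gains, Polr2m, a polymerase II-associated protein, was at 35.2, 42.7, 88.3 and 73.7 with knockdown and had no peak with shluci, and Nt5c, a nucleotidase, was at 70.1, 51.1, 55.3 and 56.4 from none. At deposited length 1 shluci library called Polr2m and 1 shRNA1 library called Naglu, so that neither change held there. The Chd8 promoter itself was called in all 24 libraries.

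In the deposited lists, 6 promoters (0.0288% of all promoters) were called by the 4 serum libraries and no other: Spink1, Stmn4, Atp2c2, Arhgef19, Zfp872 and Prrxl1. Stmn4, a neuronal microtubule destabiliser, was at 72.8, 66.1, 79.0 and 26.4, and Prrxl1, a homeobox gene of sensory neurons, at 5.4 to 18.9. The opposite, absent in serum and called in the other 20, held for 11 (0.0529% of all promoters). Among them were Foxp2, a forkhead factor, and Limch1, which binds myosin. Both were still overlapped by a peak in serum, whereas Nckap1l, Serpinb6b, Clec12b and Nlrp4c were not. Neither pattern was counted over other sites. The serum set was the only one of its medium and held the shortest list, so medium, list length and set cannot be told apart.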

How the data were processed

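ATAC-seq peak lists of 24 libraries were used as deposited, 1 narrowPeak list per library. The submitters' processing notes name Trim Galore, Bowtie2, MACS2 and deepTools and the build mm10; their parameters and the order of steps are not given in the sources used here. Each peak carries a fold enrichment over background (a ratio), −log10 p and −log10 q and a summit offset, as the authors deposited them. Peaks were called per library. No reads, counts or input were analysed here, so depth was inferred: for each peak the whole pileup was found that gives its deposited fold enrichment and −log10 p under a Poisson background without a control library, and the lowest background was turned into a library size with the shortest peak length and a preset genome size of 1.87e+09 bp. That model was assumed and the depths are estimates.

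Lists were cut within each set to its shortest list by −log10 p; percentiles rank peaks in the cut list, 100 being the strongest. Promoter sequence came from the GRCm38 assembly of RefSeq and starts from GENCODE vM21 basic. Python 3.11.15, numpy 2.4.6, pandas 2.3.3 and scipy 1.17.1 were used. Tests were exact permutations over libraries, with Benjamini-Hochberg adjustment over 8 tests; the code was tested on simulated lists. Named genes were the first 5 lost and gained by mean percentile per comparison (first 10 for combined comparisons), leaving out predicted symbols, plus members of 36 gene lists; genes named for losing or gaining every overlapping peak, single list members and the printed sequences were chosen after their values were seen. The members and lists were chosen with earlier results of these data known. The main start of a gene is the start shared by most of its transcripts, the most upstream one where tied.

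Replicate numbers did not pair the libraries: correlations of same-numbered deviations ran from −0.184 to 0.0793. Alternatives were the deposited list length, −log10 q of at least 10, regions of 250 or 1000 bp either side, any overlap of a peak, 1 start per gene, leaving out each library, a replicate block and a consensus without mismatch. Added after seeing the data were all lists at 59786 peaks, losses without an overlapping peak and values within lists that share their strongest peak.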

Additional observations from a re-analysis of the deposited data

How the results depend on the processing

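The counts of lost and gained promoters depended on list length, region and cut-off more than the direction of the Chd4 difference or of the motif gap did. Of the recomputed values that answer a comparison, 176 kept their direction and size, 99 moved and 24 reversed; of those for named genes, 645 kept them, 303 moved and none reversed. The cause was not tested for any of them. All reversals were of differences in genes called, including those of the wild-type and mutated lines, which exceeded the replicate spread. With deposited lists the difference was 228 in serum, −117 in serum-free medium, 55.5 over both media, −78 for Chd8, 123 for the mutated and 168 for the wild-type line. With −log10 q of at least 10 the values were 1158, −214, 472, −48.5, 169 and 178 in the same order. With any overlap of a peak the difference was 16 in serum and 34.75 over both media; with 1000 bp either side it was 2.25 over both media; and in serum-free medium it was −22 with 250 bp and −17 with 1 start per gene. Promoters called by all 24 numbered 1989 with 250 bp and 458 with −log10 q of at least 10.

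With 250 bp either side, gained promoters numbered 226 in serum, 206 with Chd8 shRNA1, 150 in the mutated line, 158 in the wild-type line and 119 for wild-type against mutated, and lost ones 286 with Chd8 shRNA2 and 157 for wild-type against mutated. With 1000 bp they were 39 gained for wild-type against mutated and 130 (serum) and 95 (serum-free) lost. With any overlap 84 were gained in serum-free medium, 63 in the mutated line, 48 in the wild-type line and 30 between the lines, and 115 (serum) and 71 (serum-free) were lost. With −log10 q of at least 10, gains were 469 in serum, 83 in serum-free medium, 84 with each Chd4 hairpin, 66 with Chd8 shRNA1 and 149 in the wild-type line, and losses 103 in serum, 1579 with Chd4 shRNA1, 278 with Chd8 shRNA1, 49 in the mutated and 72 in the wild-type line. With deposited lists the wild-type line lost 80.

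Leaving out 1 library at a time gave differences in genes called of −236 to 53 in serum, −7 to 28 in serum-free medium, −112.75 to 31.75 over both media, −2206 to −1594 for Chd4, −399 to 601 for Chd8, −65 to −47 for the mutated line and −93 to −53 for the wild-type line, and a motif gap of −3.81 to −3.35. A lone library then decides a call, so counts rose by construction. Gains were 273 to 504 in serum, 277 to 317 in serum-free medium, 627 to 727 and 489 to 647 with Chd4 shRNA1 and shRNA2, 297 to 751 and 407 to 1090 with Chd8 shRNA1 and shRNA2, 214 to 259 in the mutated line, 214 to 269 in the wild-type line and 185 to 229 between the lines. Losses were 396 to 569, 257 to 338, 1494 to 2004, 2097 to 3380, 363 to 774, 378 to 457, 249 to 276, 253 to 352 and 208 to 279 in the same order.

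The replicate numbers did not pair the libraries. With the replicate block, the Chd4 difference of −1992 genes had an exact permutation p of 0.111 and the motif gap difference of −3.58 points 0.125, each the smallest the blocked arrangements allow.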
